A study of Mus musculus with 54 samples.

Results

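Extraembryonic endoderm (XEN) cells of a C57B6 by Cas hybrid mouse were profiled for replication timing on each parental allele, and the C57B6 value minus the Cas value was followed over the autosomes. The profiles covered 43941 autosomal windows of 50 kb, out of 46268 windows in all, in 2 XEN profiles of the 27 profiles in the series. Each profile joins 1 library of early S-phase DNA and 1 of late S-phase DNA, so XEN rested on 4 of 54 libraries. The XEN difference was set beside the 129 minus Cas difference at the same windows in 8 profiles of mouse embryonic fibroblasts (MEFs, 4 embryos) and in 13 profiles of embryonic stem cells (ESCs, 5 lines).

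Cells copy their genome in a set order: gene-rich, open chromatin is copied early in S phase, and gene-poor, compact chromatin late. Repli-Seq labels newly made DNA with a nucleotide analogue, BrdU, sorts cells into early and late S phase, and sequences the labelled DNA of each fraction, so that a high log(early/late) ratio means early replication. In a hybrid between distant mouse strains, reads that cover strain differences give a ratio for each allele, and a positive difference here means that the first-named allele (C57B6 in XEN, 129 elsewhere) was replicated earlier. XEN cells are a stem cell line of the primitive endoderm, the lineage that forms the yolk sac endoderm. They are best known for GATA and SOX17 expression and, in female cells, for imprinted silencing of the paternal X chromosome.

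The XEN line was labelled female, had the cross C57B6 / cas, and was grown in RPMI with 15% FBS; the labels name no engineered allele or added agent. Its 2 profiles came from 1 line, and nothing in the labels places them in separate derivations. The p-values of the XEN allelic difference therefore measure the spread between repeat profiles, of XEN and MEFs together, which may be technical. The contrasts of XEN with MEFs and ESCs used line and embryo means, where XEN was 1 mean without a spread of its own. Their p-values measure the spread among MEF embryos, ESC lines and neural precursor lines, and assume that XEN lines would vary alike. MEFs were from 4 embryos of a cas / 129 cross, with 2 profiles each. The X chromosome tracks of embryos 1 and 3 went against their sex labels, and the main counts that rest on MEFs are also given without them. ESCs were the lines F121, F121-6, F121-9 and F123 (129 / cas) and Cas129 (cas / 129), grown in 2i medium or on feeder cells. Neural precursors (NPCs, 3 profiles of 2 of these lines) had no tested contrast with XEN, but their line means entered the fit behind the contrasts. V6.5 ESCs (1 profile, C57B6 against 129) served as description. Strain pair and cell type changed together between XEN and all other hybrid cells and cannot be told apart. In XEN, strain and parent of origin cannot be told apart either, since there was 1 cross. By the order of the crosses the first-named allele is maternal in XEN and paternal in MEFs, and the ESC lines mix both orders.

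The label was checked where timing allows. The female label and the imprinted X were compared first: the C57B6 X had a mean of -0.58 and -0.65 in the 2 profiles, with an SD over its windows of 2.31 and 2.35, and the Cas X had means of -1.85 and -1.66 with an SD of 0.97 and 0.83. The Cas X was thus later and flatter in both profiles. Timing gives no RNA level, so marker expression could not be read. All 28 measured endoderm genes lay in early-replicating XEN windows, with a median of 2.35. Of the same genes 25 were early in MEFs (median 2.25) and 23 in ESCs, and all 17 measured housekeeping genes were early in XEN. Early timing of this list is therefore not particular to XEN.

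Parts of chromosome 3 stood apart in XEN. In both XEN profiles the C57B6 values ran flat near 0, with steps between neighbouring windows under 0.005, over chr3:20500001-21550000 (21 windows of profile 1) and chr3:20300001-21800000 (30 windows of profile 2), where Cas went down to -4.46 and -4.79. The Cas values ran flat near 0 in the same way over chr3:154500001-155300000 and chr3:155350001-155850000 in profile 1 and over chr3:154650001-155850000 in profile 2. A further Cas run in profile 1 covered 9 windows at chr3:157550001-158000000. There were 6 such stretches in XEN with 63 windows, all on chromosome 3. The longest of 21 stretches in the other profiles had 9 windows. The files hold no read counts, so the number of allele-specific reads behind the flat values is unknown, and their part in the differences there was not tested. Leaving out these windows and 10 on each side gave the values marked so below.

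Alleles were called different in replication time over 24.6% of autosomal windows in XEN. With a limma fit of the XEN and MEF profiles, 10826 windows passed an adjusted p of 0.05 and a difference of 0.5, of which 4621 (10.5% of windows) were earlier on C57B6 and 6205 (14.1%) earlier on Cas. The lean towards Cas followed the scaling: the autosomal median was -0.04 in profile 1 and -0.06 in profile 2, and after centring each column on its median 6125 windows were earlier on C57B6 and 4710 on Cas. Quantile scaling gave 5633 and 5711. Without the windows at flat stretches 10727 were called, and without MEF embryos 1 and 3 in the fit 9267. The spread in this fit came mostly from MEFs, whose profiles repeated more closely, so it understates that of XEN. The SD between repeats was 0.465 in XEN and 0.297 to 0.345 in the 4 embryos. Weighting each cell type by its own spread left 5592 calls, and XEN profiles alone gave 0 by limma, with 10515 windows at an unadjusted p under 0.05.

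A count that needs no fit gave a similar share. At 20.1% of windows (8818) both XEN profiles differed by at least 0.5 in the same direction, 8.40% earlier on C57B6 and 11.7% earlier on Cas, while 3.24% (1424) differed by that much in opposite directions. The 4 MEF embryos had 11.6 to 13.1% of windows in the first class and 0.835 to 1.38% in the second. The 6 ESC repeat pairs had 21.6 to 25.8% and 1.04 to 9.04%. XEN thus lay above the MEF embryos and just under the ESC pairs on the first measure. Across windows the 2 XEN differences correlated at r = 0.575 (Spearman's rho 0.495), and at 0.564 without flat stretches. Neighbouring windows share their values (r = 0.884 and 0.902 between adjacent windows), so windows are not independent and the correlation is a description.

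**Figure D1:**
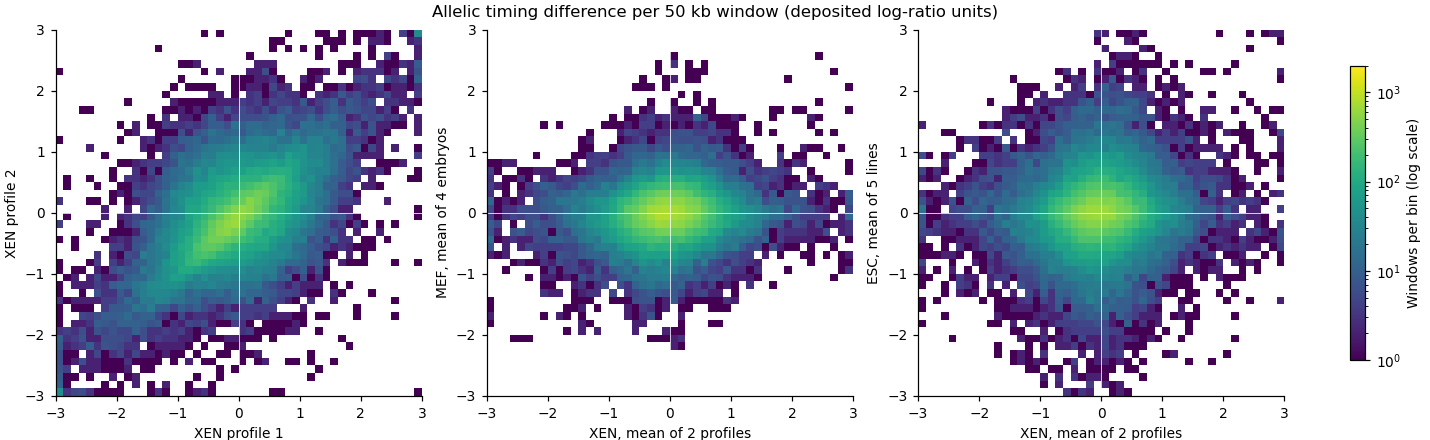
Density of autosomal 50 kb windows by allelic timing difference, in deposited log-ratio units, with colour giving the number of windows per bin on a log scale and values beyond the axes drawn in the edge bins. The 2 XEN profiles follow the diagonal (left, r = 0.575), while the XEN mean spreads around 0 against the MEF mean (middle, r = 0.102) and the ESC mean (right, r = 0.070).

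Early and late domains of the genome were far more alike between cell types than their allelic differences were. Timing averaged over alleles correlated at 0.819 between XEN and MEF and at 0.841 between XEN and ESC over windows. The allelic difference of XEN correlated at 0.087 to 0.092 with single MEF embryos, 0.048 to 0.073 with ESC lines and 0.068 to 0.075 with NPC lines. Between MEFs and ESCs, which share the strain pair, it was 0.096 to 0.145. V6.5 ESCs, where C57B6 stood against 129, showed a difference of 0.5 or more at 3.68% of windows, against 41.7% and 38.3% in the single XEN profiles, and had a correlation of -0.0022 with XEN.

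Joined windows formed 849 XEN regions of at least 200 kb, 382 earlier on C57B6 and 467 earlier on Cas, covering 438.2 Mb with a median length of 350 kb. The mean difference reached 1 in 270 regions and 2 in 21, of which 6 lay on chromosome 3. In 758 regions both profiles had a mean of at least 0.5 in the region's direction. The 2 allele means stood on opposite sides of 0 in both profiles, at any distance from 0, in 110. In MEFs, 485 of the 849 regions (57.1%) had the same sign, 94 the same sign with at least 0.5, 50 the opposite sign with at least 0.5, and 705 were under 0.5. Without MEF embryos 1 and 3 these were 497, 96, 52 and 701. ESCs had 474, 153, 93 and 603 regions in these classes. The share of regions under 0.5 was 83.0% in MEFs and 71.0% in ESCs. Of all single windows it was 85.9% and 74.2%, but a region mean is averaged over windows, so these shares are not directly comparable. The Cas allele was the one farther from MEF timing in 438 regions.

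The 20 regions described next had the largest means of the regions in each direction, 10 each, so their XEN sizes follow from the choice. Across them single XEN profiles ranged from 1.55 to 3.32 in size and the 2 profiles differed by a median of 0.317. The largest adjusted p at a peak window was 0.0114. MEFs had a mean under 0.5 in 13 of the 20 and ESCs in 6, where single windows of the genome were under 0.5 at 85.9% in MEFs and 74.2% in ESCs. V6.5 differed by under 0.5 in 19, with 0.24 as the largest of those, and by -0.92 at Skint5.

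**Figure D2:**
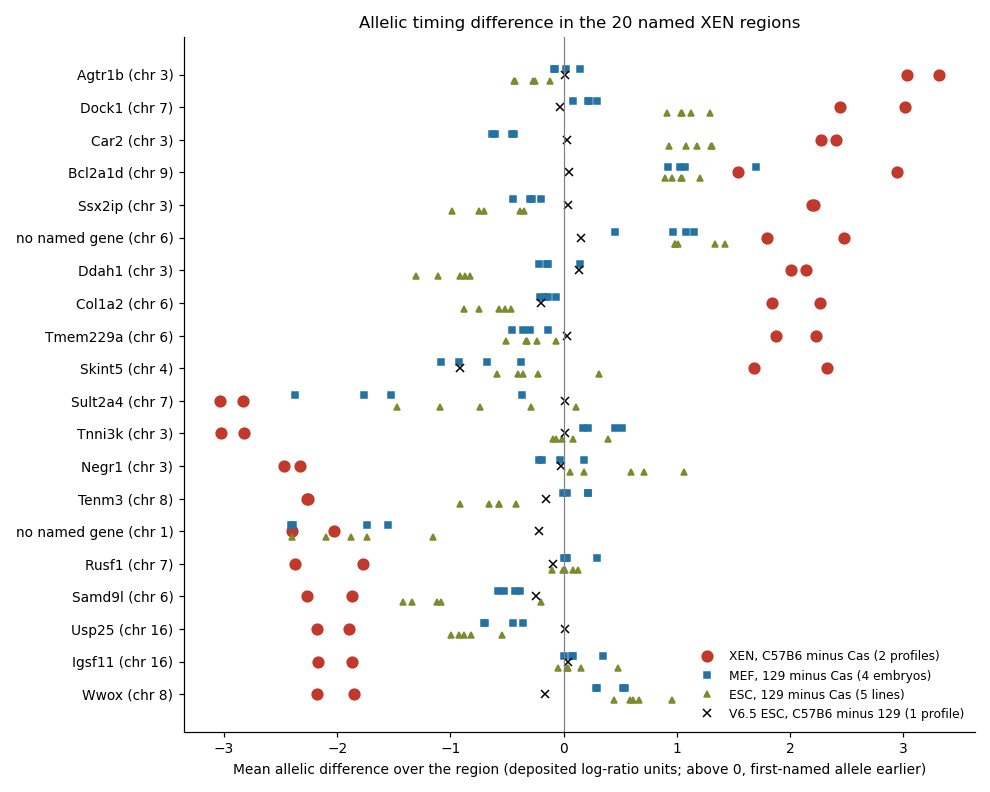
Mean allelic timing difference over each of the 20 regions, in deposited log-ratio units, by nearest gene. Circles are the 2 XEN profiles, squares 4 MEF embryos, triangles 5 ESC lines and crosses the V6.5 profile; XEN sizes run from 1.55 to 3.32, and the V6.5 cross lies within 0.5 of 0 in 19 regions.

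Regions earlier on C57B6 were led by the one over Agtr1b, an angiotensin II receptor gene, at chr3:20350001-21850000. Its differences were 3.03 and 3.32 in the 2 XEN profiles, with C57B6 at -0.13 and 0.00 and Cas at -3.16 and -3.32. MEFs were at -0.00 ± 0.11 (SD, n = 4) and ESCs at -0.30 ± 0.13 (n = 5). This is the region of the flat C57B6 stretch, so its size rests on values near 0 of one allele.

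The Dock1 region carried no flat stretch and was the next largest. Dock1, which encodes a guanine nucleotide exchange factor for Rac, lies with D7Ertd443e and Insyn2a at chr7:134150001-135400000. C57B6 stood at -0.18 and -0.27 and Cas at -3.20 and -2.71, giving differences of 3.02 and 2.44. Its peak window was 4.51 (SE 0.195, adjusted p 1.33e-05). Average timing here was 1.75 in MEFs and -1.51 in ESCs, whose columns were scaled separately. The 129 minus Cas difference was 0.20 ± 0.09 in MEFs and 1.08 ± 0.14 in ESCs, so all 5 ESC lines, at 0.911 to 1.29, had the same direction as XEN at a lower size.

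Carbonic anhydrase genes Car2, Car3 and Car1, which interconvert carbon dioxide and bicarbonate, lie at chr3:14250001-15350000. The XEN differences were 2.27 and 2.41, with C57B6 at -0.75 and -0.78 and Cas at -3.02 and -3.19. MEFs were opposed at -0.53 ± 0.10 in all 4 embryos and ESCs had the XEN direction at 1.16 ± 0.16.

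A pair of neighbouring chromosome 3 regions was early on both alleles and earlier still on C57B6. Ssx2ip, a centrosome protein gene, with Ctbs and Spata1, at chr3:146150001-146550000, had 2.19 and 2.21 in XEN, with C57B6 at 2.52 and 2.84 and Cas at 0.33 and 0.63. Ddah1 (breakdown of methylated arginines), Bcl10 (NF-kappaB signalling) and Syde2 at chr3:145400001-146000000 had 2.01 and 2.14. ESCs were opposed at both, with -0.63 ± 0.27 and -1.0 ± 0.20, and MEFs were at -0.31 ± 0.11 and -0.09 ± 0.16. No ESC line reached above 0 at either.

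Chromosome 6 held adjoining regions of opposite direction. The region chr6:4000001-5450000, with 12 genes among them Col1a2 (a type I collagen chain), Casd1 (sialic acid acetylation) and Sgce (a sarcoglycan), had differences of 2.27 and 1.84, with C57B6 at 0.07 and -0.03 and Cas at -2.19 and -1.87. MEFs were at -0.14 ± 0.06 and ESCs at -0.64 ± 0.17. Directly before it, chr6:3200001-3900000 with Samd9l, Hepacam2 and Vps50 was earlier on Cas by -2.27 and -1.87, with C57B6 at -2.91 and -2.40. There MEFs (-0.48 ± 0.09) and ESCs (-1.03 ± 0.49) had the direction of XEN. A later region, chr6:24950001-25600000 near Tmem229a, had 2.23 and 1.88 in XEN beside -0.31 in MEFs and -0.29 in ESCs.

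Other C57B6-earlier regions were less even between the profiles. Bcl2a1d, an anti-apoptotic BCL2 family gene, with Mthfsl and Trim43c at chr9:88650001-88900000, had 2.95 and 1.55, and without XEN profile 1 its peak lost its call (1.96, adjusted p 0.0915). MEFs (1.18 ± 0.35) and ESCs (1.03 ± 0.12) had the same direction. Skint5, of a family that selects epidermal T cells, at chr4:113650001-113850000, had 1.69 and 2.32 and lost its call without XEN profile 2 (1.68, adjusted p 0.112). MEFs were opposed at -0.77 ± 0.31. The region chr6:133500001-133800000, with no named protein-coding gene, had 2.48 and 1.79 in XEN, 0.91 ± 0.31 in MEFs and 1.15 ± 0.22 in ESCs.

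Regions earlier on Cas were headed by Sult2a4, a sulfotransferase gene, at chr7:13850001-14050000, with -2.83 and -3.03. C57B6 was late at -3.92 and -3.60 and Cas at -1.09 and -0.57. MEF embryos spread from -2.37 to -0.36 and ESC lines from -1.47 to 0.11, so XEN lay outside both ranges. Tnni3k, a heart kinase gene, with Fpgt and Lrriq3 at chr3:154500001-156000000, had -2.82 and -3.03 and holds the flat Cas stretch. MEFs were at 0.34 ± 0.17 and ESCs at 0.06 ± 0.20. Negr1, a neuronal adhesion gene at chr3:156700001-157200000, lies between Cas flat stretches of profile 1 and had -2.47 and -2.33, with MEFs at -0.06 ± 0.18 and ESCs at 0.52 ± 0.41.

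Tenm3, a teneurin that guides neuronal wiring, and Dctd (deoxycytidylate deaminase) gave the closest repeat, -2.26 in both profiles, at chr8:48050001-49100000. C57B6 was late there (-1.82 and -1.73) and Cas early (0.45 and 0.52). ESCs were at -0.62 ± 0.18 and MEFs at 0.11 ± 0.12. Igsf11, an adhesion gene at chr16:38850001-39650000, split the alleles in the same way, with C57B6 at -0.92 and -0.86 and Cas at 1.25 and 1.01. Its differences were -2.17 and -1.86, beside 0.13 in MEFs and in ESCs.

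Usp25, a deubiquitinase gene at chr16:76700001-77850000, had -2.18 and -1.89 and the same direction in every MEF embryo (-0.55 ± 0.18) and ESC line (-0.83 ± 0.17). The region chr1:117600001-117800000, with no named protein-coding gene, had -2.40 and -2.03 in XEN, -2.02 ± 0.44 in MEFs and -1.85 ± 0.46 in ESCs, whose ranges overlap. The NPC lines lay apart there, at 0.37 and -0.47.

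The gene-dense region chr7:127650001-128350000, with 28 genes among them Rusf1, Slc5a2 (the renal glucose transporter SGLT2) and Tgfb1i1, was early on both alleles, with C57B6 at 0.67 and 1.05 and Cas at 2.45 and 3.42. Its differences were -1.77 and -2.38, beside 0.09 ± 0.14 in MEFs and 0.02 ± 0.09 in ESCs. At Wwox, an oxidoreductase gene over a fragile site, with Clec3a and Vat1l at chr8:113900001-115400000, XEN had -2.18 and -1.85, and MEFs (0.41 ± 0.14) and ESCs (0.65 ± 0.19) had the opposite direction in every embryo and line.

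**Figure D3:**
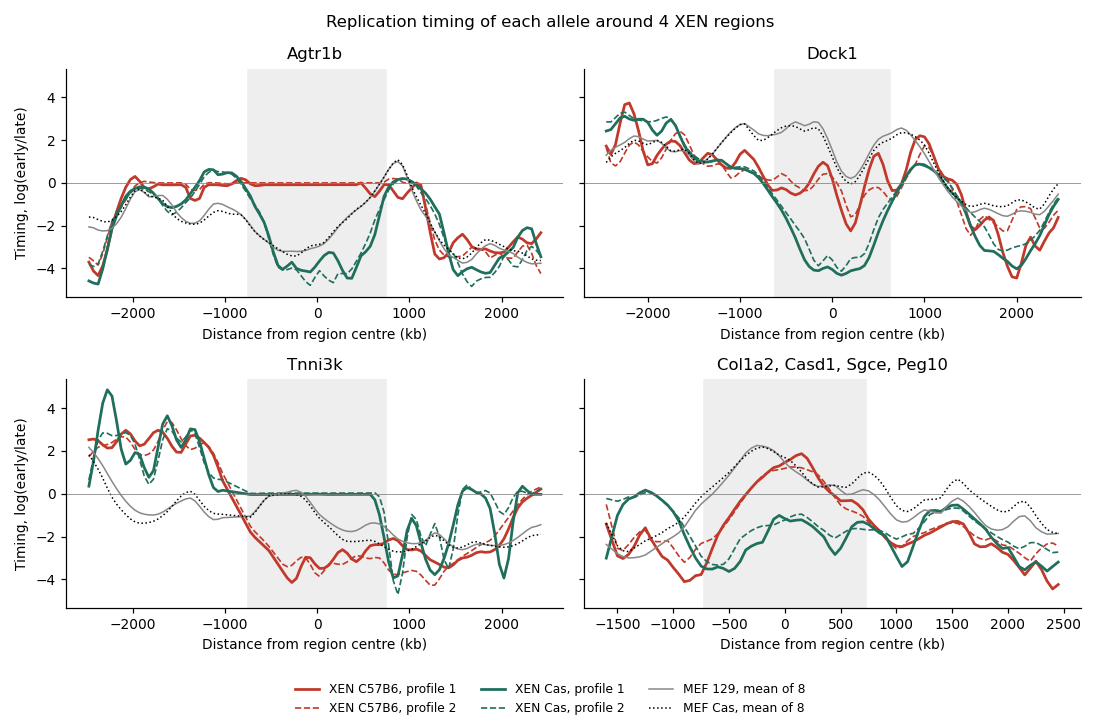
Replication timing of each allele, as log(early/late), around 4 XEN regions (shaded) by distance from the region's centre in kb; red is C57B6 and green Cas in XEN profiles 1 (solid) and 2 (dashed), and grey and black are the MEF 129 and Cas means of 8 profiles. At Agtr1b the C57B6 lines, and at Tnni3k the Cas lines, run flat near 0, while at Dock1 and Col1a2 both alleles vary from window to window.

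The difference between XEN and MEF allelic values was tested over line and embryo means, where the XEN mean had no spread of its own. It passed at 13.2% of windows (5817), with 2661 (6.06%) more towards C57B6 in XEN and 3156 (7.18%) more towards Cas. Median centring turned the split, to 3068 and 2391, and leaving out flat stretches gave 5720. The count was 8832 without XEN profile 2 and 2855 without MEF embryos 1 and 3. Besides the regions above, Tram1l1 at chr3:123750001-124500000 was among the largest, with -2.91 and -2.32 in XEN, C57B6 at -3.43 and -2.91 and Cas at -0.52 and -0.59. Its contrast with MEFs averaged -2.42, and MEF embryos lay between -0.35 and -0.03. The 10 regions with the largest contrasts, 5 in each direction, kept direction and call at their peaks under every alternative checked there, as did the 10 against ESCs. Leaving out flat stretches was not checked at these peaks. It removes those in the flat C57B6 stretch of chromosome 3 and at Tnni3k.

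XEN against ESC passed at 21.4% of windows (9410), with 4053 (9.22%) more towards C57B6 in XEN and 5357 (12.2%) more towards Cas. After median centring these were 5223 and 3777, without flat stretches the total was 9320, and without MEF embryos 1 and 3 in the fit it was 7337. This comparison shares the XEN values with the one against MEFs. A 37-window region with 21 genes at chr19:33750001-35600000, which holds the interferon-induced Ifit3, Ifit2 and Ifit1bl1, had -2.20 and -2.01 in XEN, with C57B6 at -1.49 and -1.43 and Cas at 0.70 and 0.58. ESC lines were at 0.51 ± 0.36 and MEFs ranged from 0.01 to 0.13. Col6a3 (a type VI collagen chain), Mlph (melanosome transport) and Cops8 (a COP9 signalosome subunit) at chr1:90000001-91400000 had 1.24 and 1.26 in XEN and -1.34 ± 0.11 in ESCs, so the first-named allele was earlier in XEN and later in all 5 ESC lines. V6.5 there was at 0.38.

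Windows past 0.5 in one direction in every profile, embryo or line numbered 8818 in XEN (20.1% of autosomal windows), 2889 in MEFs (6.57%; 4116 windows in embryos 2 and 4 alone) and 4500 in ESCs (10.2%). XEN needed 2 single profiles to pass, MEFs 4 embryo means and ESCs 5 line means. These counts and the shares built on them are thus not directly comparable between cell types. XEN and MEFs shared 526 of one direction, 5.97% of the XEN windows and 18.2% of those of MEFs, and 217 were opposed (2.46% and 7.51%). XEN and ESCs shared 707 (8.02% of XEN, 15.7% of ESC windows), and 540 were opposed (6.12% and 12.0%). In all 3 cell types 115 windows had the same direction, 1.30% of the XEN windows. At the XEN windows earlier on C57B6, MEFs had a median of 0.02 and ESCs of 0.04, and the MEF difference was under 0.5 at 84.1% of them against 85.9% of all windows. ESCs were under 0.5 at 67.1% of them against 74.2% of all. At those earlier on Cas the medians were -0.08 in MEFs and -0.03 in ESCs, with 81.2% and 68.7% under 0.5.

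Allelic differences were most frequent in windows of mid-late to mid-early timing. By deciles of XEN timing from latest to earliest, 12.5, 19.4, 24.2, 31.7, 25.2, 24.1, 25.6, 17.1, 11.0 and 9.74% of windows differed by at least 0.5 in both profiles. In the fourth decile 22.3% were earlier on Cas and 9.47% on C57B6, and in the latest decile the order was turned (5.07% and 7.42%). The excess of Cas in the fourth decile was smaller after median centring (17.6% and 12.1%) and after quantile scaling (13.8% and 11.2%). XEN timing is the mean of the 2 alleles compared, so a window with 1 early and 1 late allele falls towards the middle deciles. Ranked by MEF timing instead, the share peaked at 25.9% in decile 3, beside 14.1% in decile 1 and 11.4% in decile 10. Decile 4 of that ranking had 15.8% earlier on Cas and 9.79% on C57B6. Over deciles of XEN timing the spread between the 2 profiles moved opposite to the share. It went from 0.628 in the latest decile to 0.168 in the fifth and 0.573 in the earliest, and its part in the shares was not tested. Over deciles 4 to 7, 31.5% of windows were called, and over the first and last 14.9%. Without XEN profile 1 these shares were 22% and 17.9%, and without profile 2 27.4% and 19.8%.

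**Figure D4:**
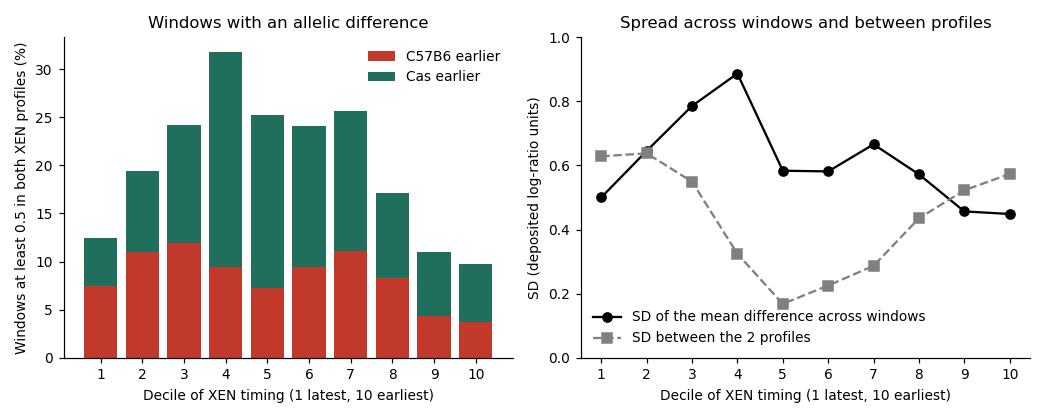
Left, percent of windows in each decile of XEN timing (1 latest, 10 earliest) with a difference of at least 0.5 in both profiles, by the earlier allele. Right, the SD of the mean XEN difference over windows and the SD between the 2 profiles, in log-ratio units; the share peaks at 31.7% in decile 4, and the SD between profiles is lowest at 0.168 in decile 5.

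Among chromosomes the called share ran from 18.3% on chromosome 11 to 38.4% on chromosome 19, beside 24.6% in all. On chromosome 19, 11.3% of windows were called earlier on C57B6 and 27.1% earlier on Cas (14.1% and 22.4% after median centring, 13.1% and 24.8% after quantile scaling), and the median difference was -0.18 and -0.29. At 30.8%, chromosome 3 fell to 29.0% without its flat stretches, and the SD of its differences from 0.862 to 0.741.

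Genes of the endoderm programme replicated early on both alleles and had few called allelic differences in the main fit. Of 28 measured, 1 was called (3.57%, against 24.6% of windows), and none had 0.5 or more in both profiles in one direction; in 16 the profiles differed in sign. The list's median was -0.11, and that of the genome -0.04. Without regard to sign the median size was 0.336 on the list and 0.334 over the genome, so the typical size was no smaller. Calls numbered 2 after median centring, 3 after quantile scaling, 2 without XEN profile 1 and 6 without profile 2. The single call was Ttr, which encodes the retinol and thyroid hormone carrier transthyretin, with -1.08 and -0.17, and it was lost without XEN profile 1 and after median centring (-0.52, adjusted p 0.0944). Of these genes, 16 lay in decile 8 of XEN timing, where 22.8% of all windows were called, and 10 in decile 9, where 15.7% were.

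Fibroblast genes were called at 9 of 20 (45.0% against 24.6% of windows), 6 earlier on C57B6 and 3 on Cas. Their windows were early in MEFs (median timing 2.79) and mid-S in XEN (0.55). Of all windows, 28.5% were called in decile 6 of XEN timing (median 0.40) and 31.2% in decile 7 (median 1.27). Col1a2 lies in the same region as Sgce of the imprinted list, so that region counts in both lists. Col1a2 had 3.04 and 2.35 (fit 2.69, SE 0.217, adjusted p 0.000104). Acta2, smooth muscle actin, within the Ifit region of chromosome 19, had -2.79 and -2.83, with Cas early (1.62 and 1.46) and C57B6 late (-1.17 and -1.38). Postn, a matrix protein gene, had -2.10 and -1.50, Twist1, a mesenchymal transcription factor gene, 1.35 and 1.53, and Col3a1 -0.87 and -1.0. With each XEN profile left out in turn, 6 of the 9 calls were kept both times.

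Pluripotency genes had 7 calls of 18 (5 earlier on C57B6; 38.9% against 24.6% of windows), of which 3 were kept in both of these leave-outs. Dppa2 and Dppa4, neighbours that encode chromatin-associated proteins of early embryos, had 1.92 and 1.61, and 1.84 and 1.70, with C57B6 near -2 and Cas late (-3.93 and -3.65 at Dppa2). Dppa5a had 1.08 and 0.97, Tcl1 1.35 and 0.77, and Zfp42 -1.37 and -1.23. Zfp42 lost its call with either profile left out (adjusted p 0.0948 and 0.0642) and Dppa5a without profile 1 (0.0743). The profiles were uneven at Sox2 (-1.49 and -0.23) and Tfcp2l1 (0.44 and 2.13), and each lost its call without one of them.

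Trophoblast genes had 4 calls of 12 (33.3% against 24.6% of windows). Eomes, a T-box factor of trophoblast stem cells, was earlier on Cas with -1.79 and -1.98 (fit -1.88, SE 0.144, adjusted p 8.41e-05), and Gcm1, a syncytiotrophoblast factor, with -1.50 and -0.99. Elf5 was earlier on C57B6 with 0.93 and 0.63, and Ascl2 with 0.40 and 0.84. Neural genes had 3 calls of 17 (17.6%), with 1 call on the list without XEN profile 1 and none of the 3 kept in both leave-outs; Pax6 (-0.78 and -0.65) lost its call without profile 1. Replication genes had 6 of 25 (24.0%, close to the 24.6% of windows), all earlier on C57B6, and again 6 under median and quantile scaling, but 3 without XEN profile 1 and 3 without profile 2. Orc2, an origin recognition subunit, had 0.99 and 0.69, and Gins1 of the replicative helicase 0.79 and 0.67; these 2 kept their calls in both leave-outs. Housekeeping genes had 2 of 17 (11.8%), neither kept in both leave-outs.

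Imprinted genes are expressed from one parental allele, and many lie in clusters whose parental alleles are known to replicate at different times. In XEN 18 of 48 measured were called (37.5%, beside 24.6% of windows), in 16 windows, since some share one. Of these, 12 were earlier on C57B6 and 6 on Cas; 7 lay on chromosome 6 and 8 on chromosome 7. Over the 48 genes the median difference was -0.05, and over the genome -0.04. Without XEN profile 1 the called genes were 7 earlier on C57B6 and 6 on Cas. Of called genes known for maternal expression 9 were earlier on C57B6 and 2 on Cas, and of those with paternal expression 3 and 4 (without profile 1, 4 and 2, and 3 and 4); over all measured genes the counts were 12 and 11, and 11 and 14. C57B6 stands first in the cross and so for the mother by convention, but strain moves with it.

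The Sgce and Peg10 cluster had the largest C57B6-earlier values. Peg10, a retrotransposon-derived gene needed in placenta, had 2.88 and 2.33, Sgce 2.63 and 2.42, and Ppp1r9a, which binds actin, 2.51 and 2.41. Sgce and Peg10 are known for paternal expression and Ppp1r9a for maternal expression, and the 3 were earlier on the same allele. At Peg10 C57B6 was at 1.6 and 1.25 and Cas at -1.28 and -1.08.

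The chromosome 7 cluster around the growth inhibitor Cdkn1c was uneven between profiles. Phlda2, a placental growth regulator, had 1.96 and 0.64, Cdkn1c and Slc22a18, which share a window, 1.90 and 0.63, and Kcnq1 with Kcnq1ot1, also 1 window, 1.40 and 0.72. At Cdkn1c C57B6 was at 2.21 and 0.78 and Cas at 0.30 and 0.16. H19 had 1.88 and 0.25. Phlda2, Cdkn1c, Slc22a18 and H19 lost their calls without profile 1. Igf2r, the receptor that clears IGF2, had 0.53 and 1.00 and lost its call without profile 2.

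Earlier on Cas were Sfmbt2, a Polycomb-related gene with an imprinted microRNA cluster, with -2.62 and -2.14 (fit -2.38, SE 0.18, adjusted p 8.11e-05), and Inpp5f, a phosphoinositide phosphatase gene, with -1.70 and -2.22. At Sfmbt2 MEFs were at -0.51 ± 0.30 and ESCs at 0.91 ± 0.37. The neighbours Mest, Copg2 and Klf14 had -0.97 and -0.56, -0.86 and -0.90, and -1.09 and -0.57. Impact had -0.49 and -0.73, beside 1.03 ± 0.38 in MEFs. The order of the cross is reversed in MEFs, so opposite signs in XEN and MEFs can stand for the same parental allele. Some genes with large MEF differences were not called in XEN: Ndn had -1.34 and 0.20 in XEN and 2.12 ± 0.47 in MEFs, Cobl -0.03 and -0.18 against -2.10 ± 0.58, and Meg3 -0.21 and -0.31 against -1.34 ± 0.19. With each XEN profile left out in turn 8 of the 18 calls were kept both times, and weighting each cell type by its own spread kept 11.

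**Figure D5:**
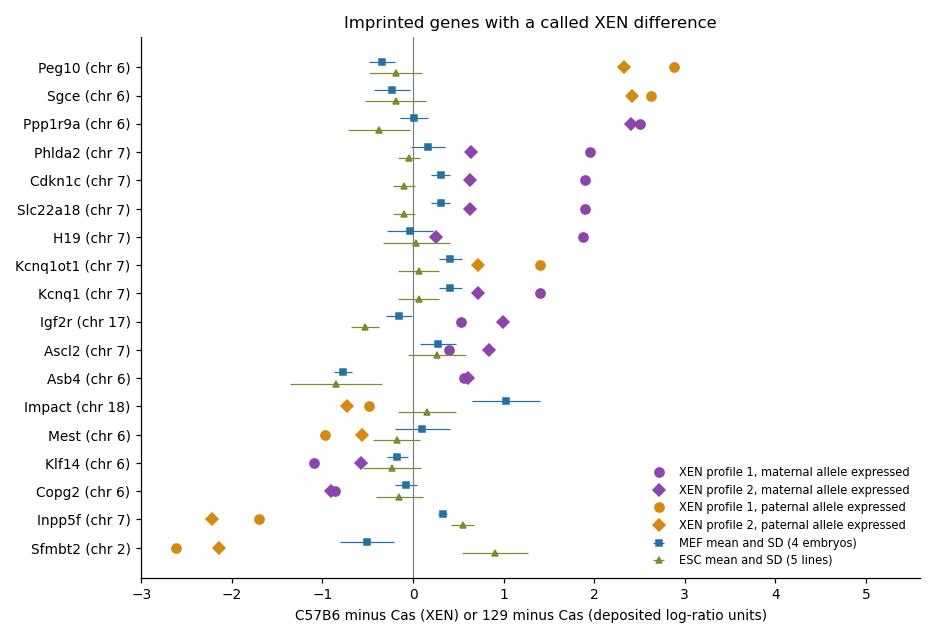
Allelic timing difference at the 18 imprinted genes with a called XEN difference, in deposited log-ratio units; circles and diamonds are XEN profiles 1 and 2, coloured by the parental allele known to be expressed, and squares and triangles give the mean and SD of 4 MEF embryos and 5 ESC lines. Peg10, Sgce and Ppp1r9a lie near 2.5 in both XEN profiles, and H19 at 1.88 and 0.25. By the order of the cross the first-named allele is maternal in XEN and paternal in MEFs, and the ESC lines mix both orders.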

How the data were processed

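Repli-Seq was measured as allele-specific early and late S-phase libraries. The deposited file gives a log ratio of early over late per allele and 50 kb window (mm10), which the authors made with Bowtie2, SAMtools and bedtools per the submitters' processing notes; allele assignment, smoothing and scaling are not given in the sources used here. The deposited values were read as log2, although the base is not stated. There are no counts, so depth is unknown and no counting interval can be given. Columns fall into separate scaling sets (XEN and MEF; ESC and NPC), so tests used only differences between alleles of a profile, and timing levels set across them are a description that carries this offset.

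The first-named allele minus Cas was tested in limma 3.58.1 (R 4.3.3) over all autosomal windows with Benjamini-Hochberg adjustment. XEN was tested against 0 with XEN and MEF profiles in the fit. The contrasts of XEN with MEF and ESC used line and embryo means, with the NPC lines in the fit. The XEN line was assumed there to vary like the MEF, ESC and NPC groups. A call needed an adjusted p under 0.05 and a difference of 0.5. Called windows of one direction were joined over gaps of up to 2 windows into regions of at least 200 kb. Named were the 10 largest means per direction in XEN, the 5 largest per direction in each contrast, up to 3 nearest genes each, called members of the gene lists, and uncalled endoderm or imprinted members with values. Genes were placed by their midpoint from the reference table. The members, lists and rules were chosen with earlier results of these data known. Scripts were tested on simulated data.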

Additional observations from a re-analysis of the deposited data

Results flagged for a closer look

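In the 10 regions with the largest contrast between XEN and MEFs, the tested difference of the allelic values averaged 3.44 (chr3:20450001-21800000, a flat C57B6 stretch), 3.08 (Car2 and Car3), 2.77 (Skint5), 2.61 (chr6:25000001-25500000) and 2.61 (Dock1) towards C57B6 in XEN, and -3.26 (Tnni3k, a flat Cas stretch), -2.63 (chr7:60650001-60850000), -2.55 (Wwox), -2.49 (chr3:104250001-104450000) and -2.42 (Tram1l1) towards Cas. At chr7:60650001-60850000 the XEN profiles were uneven (-0.55 and -2.27).

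For XEN against ESCs the contrasts were 3.57 (chr3:20400001-21850000, the same flat stretch), 2.69 (Col1a2), 2.68 (Cdh19), 2.63 (chr6:25000001-25500000) and 2.59 (Col6a3), and -2.99 (Tnni3k), -2.73 (Wwox), -2.61 (Ifit3), -2.60 (Vmn1r184, Cyp2a4 and Cyp2b9) and -2.56 (chr6:60250001-60700000). The last was large mainly through ESCs, with XEN at -1.01 and -0.89.

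Of 72 groups of MEF embryos or ESC lines, 3 had a sample far from the others, and chance gives about 1 in 20: MEF embryo 3 at the Rusf1 region (0.30), the ESC line F123 at the Samd9l region (-0.20) and MEF embryo 2 at Klf14 (-0.0017).

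The X chromosome was outside the tests. Over its windows the median C57B6 minus Cas difference was 1.07 and 0.79 in the 2 XEN profiles, where the autosomal median was -0.04 and -0.06, and 71.6% and 66.2% of X windows were earlier on C57B6.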

How the results depend on the processing

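XEN calls, 10826, came to 0 with XEN profiles alone, 3906 at a minimum size of 1 and 5592 with weights by noise, and to 9146 to 10843 with a profile or embryo left out. XEN against MEF calls, 5817, were 12423 over single profiles, 4435 to 8832 with 1 profile, line or embryo left out, and 2855 without MEF embryos 1 and 3, an alternative chosen after seeing the data, as were the weights and the flat stretches. Gene list calls, 49 of 184, were 0 with XEN alone, 23 at a size of 1, 25 weighted and 38 without MEF embryos 1 and 3. At the 5′ end of genes with a known strand, a smaller set, they were 32 of 131. In deciles 4 to 7 the called 31.5% became 0, 11.7% at a size of 1 and 18.7% weighted; in the first and last deciles 14.9% became 0, 3.60% and 4.81%, and 9.35% with all hybrid profiles in the fit. Map2 turned at its 5′ end, from 0.67 to -1.34 (adjusted p 0.000233). The cause of these changes was not tested. The replicate block gave 10606 XEN calls and 12133 against MEF, the latter over single profiles too; deviations of same-numbered profiles correlated at -0.027 to 0.017 between XEN and MEFs and at -0.015 to 0.022 among MEF embryos, so the numbers share only a name. Other alternatives stayed within 1.5 times. Few XEN libraries, 4, and unknown read depth limit all values.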
